A study of Mus musculus with 75 samples.

Results

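The genes described here encode the factors that build ribosomes. A list of 50 mouse genes was set by name, with earlier results of these data known. From this list 49 genes were found among the 21552 genes measured on the arrays. Npm3, the remaining one, was not analysed here. The list was ordered by role into 4 classes. In the order of the pathway these were RNA polymerase I and its factors (8 genes), the small nucleolar ribonucleoproteins or snoRNPs (8), the small-subunit processome (11) and the factors that assemble the 2 subunits (22 measured). For a gene with several probe sets the brightest, by its mean across the series, was taken.

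Ribosomes are made in the nucleolus. RNA polymerase I transcribes a long precursor rRNA, snoRNPs methylate the ribose of chosen nucleotides or turn uridines into pseudouridine, the processome cuts out the small-subunit rRNA, and assembly factors fit ribosomal proteins onto the pieces before export. The pathway is among the largest consumers of energy in a dividing cell, and many of its genes are textbook targets of Myc-family transcription factors, which granule neuron progenitors and medulloblastoma cells of the hedgehog type use to proliferate.

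The tumours were medulloblastomas of Ptch1+/- mice, grown as allografts in nude CD1 hosts. Ptch1 encodes the receptor that keeps hedgehog signalling off. MK4101, a small molecule that blocks sonic hedgehog (SHH) signalling, or vehicle was given to the hosts, and all 75 arrays, controls included, carry this tumour and this host. The single-dose schedule (QD in the labels) had 61 arrays with vehicle, 40 mpk or 80 mpk at 1, 6, 12, 24 and 36 h, in groups of 3 to 5 arrays. The multiple-dose schedule (BID) had 14 arrays, which were 4 vehicle and 1 treated array (80 mpk) at 24 h and 5 vehicle and 4 treated arrays (80 mpk) at 36 h. The unit mpk is that of the labels (mg per kg), and ages, the number of doses in the BID schedule and the number of donor tumours are not given in the sources used here. Nor is it stated that the arrays of a group are different animals, so p-values describe the spread between arrays and no more. A nude host lacks T cells but keeps its macrophages, fibroblasts and vessels, and these are part of each sample.

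Array quality bears on all results alike. Array medians lay between 0.109 and 0.131 in units of scaled intensity (each array has a mean of 1), and the lowest correlation between arrays was 0.941. Gli1, the transcription factor that reads out the pathway, differed from vehicle with 80 mpk by -4.00 ± 0.22 on the log2 scale at 6 h (adjusted p = 3.73e-21 in limma) and did not pass the test at 36 h after a single dose (0.05 ± 0.23, adjusted p = 0.936). Skeletal muscle markers had a mean above 0 on the log2 scale in 22 arrays, among them 1 of 5 vehicle, 3 of 4 low-dose and 2 of 4 high-dose arrays at 24 h. Where leaving these arrays out moved a count of members by over 1.5 times, the count without them stands beside the result.

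Sequences upstream of the start sites are shown first because Myc-family proteins bind the E-box CACGTG, so that a reader can see which of the promoters carry it. RefSeq windows (GRCm38.p6) existed for 44 of the 49 genes, and the 250 bases before the start site were read. Windows are printed for the 3 members with CACGTG (Nop2, Rrn3 and Imp4) and for the 2 members without it that had the smallest adjusted p at 24 h (Nop56 and Nolc1), 5′ to 3′ on the gene's strand. Capitals mark CACGTG, or CCGGAAG, the core of a site for ETS factors, found on either strand.
Nop2, chr6:125131633-125131882, plus strand: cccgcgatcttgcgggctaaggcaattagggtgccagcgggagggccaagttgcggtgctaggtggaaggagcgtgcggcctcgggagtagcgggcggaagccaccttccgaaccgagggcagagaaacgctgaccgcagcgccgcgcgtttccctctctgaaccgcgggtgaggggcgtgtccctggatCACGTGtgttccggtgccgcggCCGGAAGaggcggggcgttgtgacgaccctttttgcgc
Rrn3, chr16:13780449-13780698, plus strand: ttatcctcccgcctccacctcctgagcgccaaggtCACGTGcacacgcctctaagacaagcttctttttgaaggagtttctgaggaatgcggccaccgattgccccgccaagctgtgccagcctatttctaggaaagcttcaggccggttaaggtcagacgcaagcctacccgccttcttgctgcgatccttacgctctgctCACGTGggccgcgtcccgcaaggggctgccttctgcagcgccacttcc
Imp4, chr1:34439579-34439828, plus strand: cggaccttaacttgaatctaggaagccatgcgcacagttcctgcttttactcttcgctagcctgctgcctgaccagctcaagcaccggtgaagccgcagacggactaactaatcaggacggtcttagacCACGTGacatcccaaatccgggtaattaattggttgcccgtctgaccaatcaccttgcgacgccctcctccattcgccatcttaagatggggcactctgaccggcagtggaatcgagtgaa
Nop56, chr2:130274162-130274411, plus strand: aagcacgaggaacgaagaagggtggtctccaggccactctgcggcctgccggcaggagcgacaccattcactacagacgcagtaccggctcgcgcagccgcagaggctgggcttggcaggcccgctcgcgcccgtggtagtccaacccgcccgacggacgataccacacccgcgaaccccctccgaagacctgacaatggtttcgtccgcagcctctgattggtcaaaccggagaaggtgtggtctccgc
Nolc1, chr19:46075597-46075846, plus strand: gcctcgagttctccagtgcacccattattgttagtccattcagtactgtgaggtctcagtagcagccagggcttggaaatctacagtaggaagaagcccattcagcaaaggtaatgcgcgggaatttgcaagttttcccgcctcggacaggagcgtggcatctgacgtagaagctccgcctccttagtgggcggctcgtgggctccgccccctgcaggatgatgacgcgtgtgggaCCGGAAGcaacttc
CACGTG begins 60 bases before the start site of Nop2, 215 and 48 bases before that of Rrn3 and 121 bases before that of Imp4. CCGGAAG begins 38 bases before the start site of Nop2 and 14 before that of Nolc1. Both motifs were searched on both strands, and their matches do not overlap in the windows shown. CACGTG was present in 6.82% of the members with a window, against 6.86% of all 27018 genes of the table and 8.02% of the genes measured here. CCGGAAG was present in 9 of 44 members (20.5%), against 7.83% of all genes and 10.5% of the measured ones. A second list of ribosome biogenesis factors, described below, had windows for 81 genes. There CACGTG was present in 12.35% and CCGGAAG in 37.0%. The 3 members with CACGTG had a median difference from vehicle of -0.54 on the log2 scale at 24 h with 80 mpk, and the 41 without it -0.60. A match of letters is a description of the window and not a binding site. Bases further upstream or after the start site were not read, so a gene without a match here may carry one there.

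The first question was when the genes moved after a single dose. Over the 49 genes the mean log2 scaled intensity of an array was 1.44 ± 0.05 with vehicle at 24 h (SD, n = 5), 0.98 ± 0.03 with 40 mpk (n = 4) and 0.81 ± 0.08 with 80 mpk (n = 4). The 5 vehicle arrays lay between 1.35 and 1.48, the 4 low-dose arrays between 0.95 and 1.01 and the 4 high-dose arrays between 0.69 and 0.86, so the 3 groups did not overlap. At 1 h the same mean was 1.48 with vehicle, 1.40 with 40 mpk and 1.46 with 80 mpk, and at 36 h it was 1.46, 1.40 and 1.18. In vehicle arrays the group means stayed between 1.42 and 1.52 at every time and on both schedules. In bulk tumour samples, fewer cells of a type and less RNA per cell cannot be told apart.

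**Figure D1:**
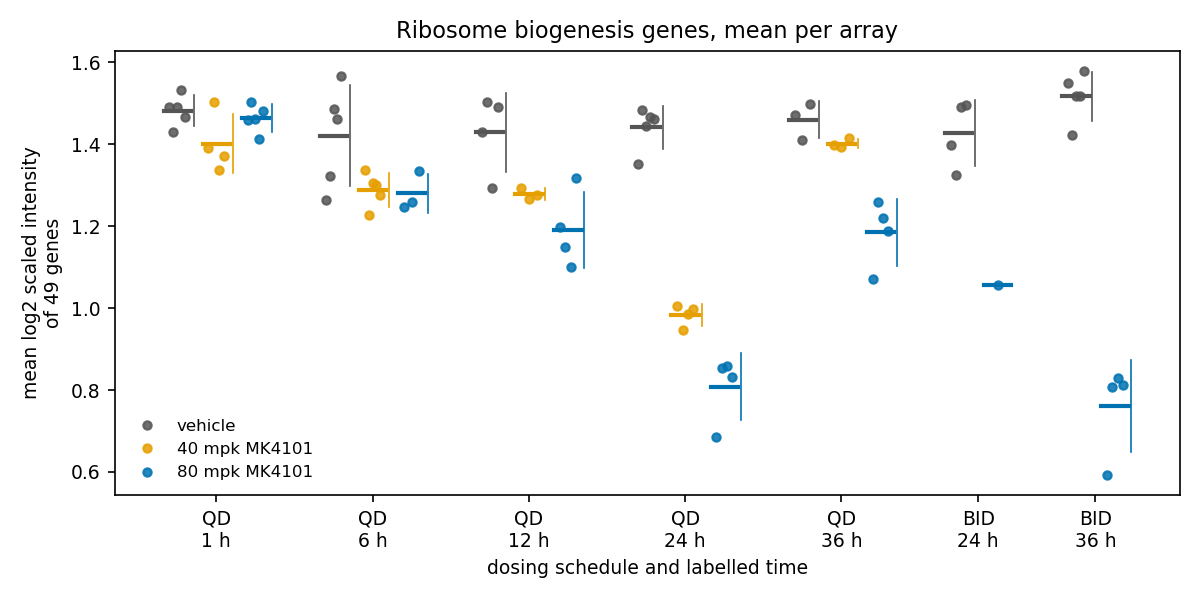
Mean log2 scaled intensity of the 49 ribosome biogenesis genes in each array (points), by dosing schedule and labelled time; horizontal bars are group means and thin vertical lines span 1 SD to either side. The treated arrays lie lowest at 24 h after a single dose (0.81 with 80 mpk) and at 36 h of multiple dosing (0.76).

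In counts of genes, limma called 0 members at 1 h at either dose, where it called 0% of all genes in each direction. An unadjusted p under 0.05 was reached by 10 members with 40 mpk (10.6% of all genes). All 10 were lower, where 4.51% of all genes were lower at that level. With 80 mpk it was reached by 3 members (6.15% of all genes), 2 lower and 1 higher (2.11% and 4.04% of all genes). With 80 mpk 4 members were lower at 6 h, when 1.18% of all genes were called lower, 19 at 12 h (background 5.99%), 48 at 24 h (15.3%) and 25 at 36 h (5.64%). With 40 mpk 2 were lower at 6 h (1.05%), 6 at 12 h (2.59%), 42 at 24 h (12.1%) and 0 at 36 h (0.39%), the last with 4 members at an unadjusted p under 0.05 (11.5% of all genes). No member was called higher in any of the 11 treatment comparisons of the limma fit. The share of all genes called higher was 0, 0.626, 3.9, 14.5 and 0.288% at the 5 times with 40 mpk, 0, 0.575, 3.85, 17.6 and 5.22% with 80 mpk and 19.8% at 36 h of multiple dosing. Median differences over the 49 genes with 80 mpk were -0.02, -0.14, -0.22, -0.60 and -0.28 on the log2 scale at the 5 times, against 0.00, 0.03, -0.01, -0.02 and -0.04 over all genes. With 40 mpk they were -0.10, -0.12, -0.14, -0.47 and -0.06, against 0.03, 0.001, -0.001, -0.01 and -0.02 over all genes. The median with 40 mpk at 1 h was thus close to those at 6 and 12 h. The 2 doses share their vehicle arrays at each time, so their values are given side by side and not as repeats of each other. Under a scaling that centres each array on its median, the median of all genes shifted to -0.18 at 24 h with 80 mpk and to -0.17 with 40 mpk, that of the members to -0.76 and -0.63, and the counts were 49 and 47. The share of all genes called was not computed under this scaling, here or below. Counts under it therefore have no background beside them.

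The called genes were few at 6 h. Nop58, a core protein of the box C/D snoRNPs that guide rRNA methylation, read 6.69, 6.39, 8.10, 8.43 and 7.93 in vehicle arrays and 5.67, 4.35 and 3.95 with 80 mpk. All 3 treated arrays were below every vehicle array, and the difference was -0.70 ± 0.17 (adjusted p = 0.00878). Nop56, its partner in the same particle, read 6.61, 6.81, 7.59, 7.51 and 7.47 with vehicle and 5.40, 5.90 and 5.57 with 80 mpk, again without overlap, with a difference of -0.35 ± 0.09 (adjusted p = 0.0157). Tsr1, a factor of late small-subunit maturation, read 2.15, 2.35, 2.58, 2.56 and 2.53 against 1.80, 2.10 and 1.97, a difference of -0.31 ± 0.07 (adjusted p = 0.00824). Nop10, a small protein of the box H/ACA particles that make pseudouridine, differed by -0.33 ± 0.09 (adjusted p = 0.0414), with 1 of its 3 treated arrays (0.656) inside the vehicle range of 0.646 to 0.950. With 40 mpk the called genes were Wdr43 (-0.23 ± 0.06, adjusted p = 0.0459) and Noc4l (-0.26 ± 0.07, adjusted p = 0.0258), both processome factors. Wdr43 read 4.16, 3.94, 3.89, 4.20 and 4.29 with vehicle and 3.42, 3.50, 3.30, 3.74 and 3.51 with 40 mpk. Its groups did not overlap, while 1 of the 5 treated arrays of Noc4l (2.48) lay inside its vehicle range of 2.39 to 3.15.

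These early counts rest on single arrays. With 80 mpk at 6 h, 7 members were called without vehicle replicate 1, and 1, 2 and 2 without treated replicates 1, 2 and 3. With 40 mpk at 6 h, 7 were called without vehicle replicate 1, 1 without vehicle replicate 4 and 0 without vehicle replicate 5. Leaving out a treated array there gave 0 calls for replicates 1, 2 and 5 and 1 call for replicates 3 and 4. Without the muscle-rich arrays, which leaves 1 treated array with 80 mpk, both counts at 6 h were 1, and both were 0 when the fit held no other groups.

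At 12 h with 80 mpk the 19 called genes came from all 4 classes, 5 of 8 snoRNP genes, 3 of 11 processome genes, 1 of 8 polymerase I genes and 10 of 22 assembly genes. Dkc1, the pseudouridine synthase of the box H/ACA particles, read 8.16, 8.39, 6.51 and 7.59 with vehicle and 4.89, 4.93, 4.80 and 5.90 with 80 mpk, a difference of -0.58 ± 0.11 (adjusted p = 5.77e-05). Its treated arrays were all below its vehicle arrays. Bop1, a subunit of the PeBoW complex of the large subunit, differed by -0.45 ± 0.07 (adjusted p = 4.66e-06), Utp20, a processome scaffold, by -0.54 ± 0.12 (0.000671) and Polr1b, the second subunit of RNA polymerase I, by -0.54 ± 0.14 (0.00688). Every treated array was below every vehicle array for 16 members, with 6.84% of all genes in that state. Every one of the 19 genes was also lower at 24 h with 80 mpk, where they make up 39.6% of the 48 called. With 48 of the 49 members called there, this overlap was nearly fixed in advance. The comparisons share no array but share an estimate of the spread. With 40 mpk at 12 h the 6 called genes were Dkc1, Ddx21, Rrs1, Gnl3, Nop56 and Tsr1, with differences between -0.43 and -0.24. That count was 2 and 3 without vehicle replicates 2 and 4, 3, 1 and 1 without treated replicates 1, 2 and 3, and 1 without the muscle-rich arrays. Under centring on the median, 8 members were called with 80 mpk and 0 with 40 mpk, and 5 and 0 when the fit held no other groups.

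At 24 h with 80 mpk nearly all members of the list were lower. The 48 called genes had differences from -1.24 (Nop56) to -0.24 (Polr1c, a subunit that RNA polymerase I shares with polymerase III). For 44 of the 49 every treated array was below every vehicle array, a state found in 14.3% of all genes. The classes differed in size, with a median of -1.01 over the 8 snoRNP genes, -0.60 over 22 assembly genes, -0.54 over 11 processome genes and -0.47 over 8 polymerase I genes. No test was made between classes.

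**Figure D2:**
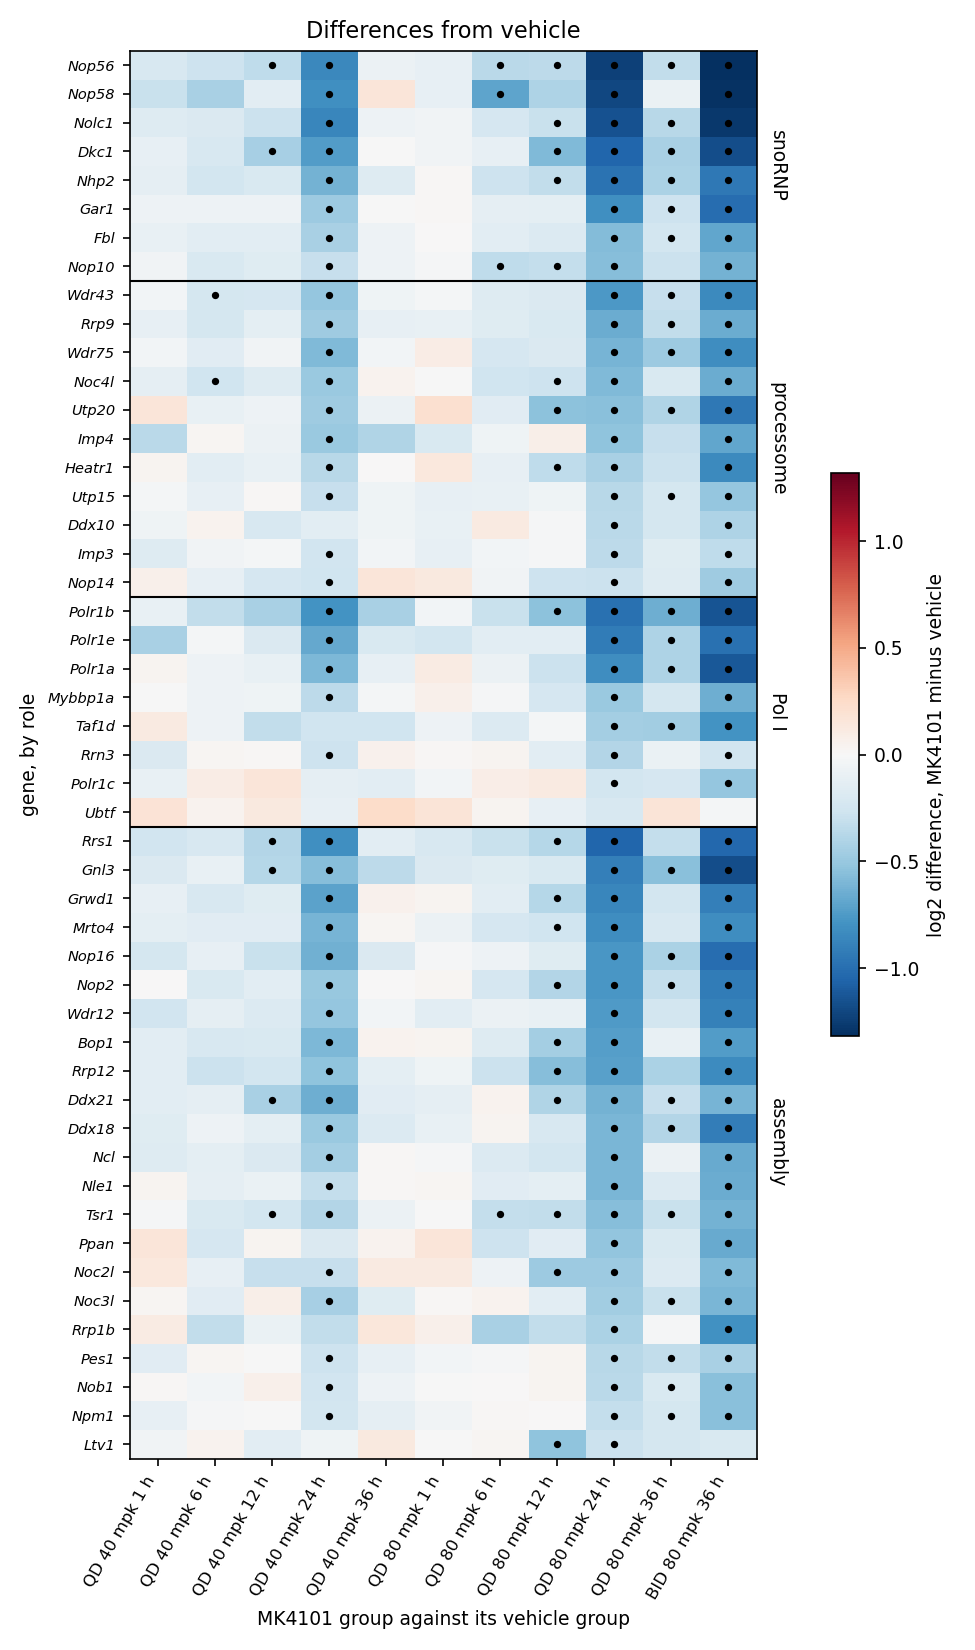
Log2 difference from vehicle (colour, blue for lower) of each of the 49 genes (rows, by class and sorted by the value at 24 h with 80 mpk) in the 11 treatment comparisons (columns); a black dot marks an adjusted p under 0.05 in limma. Dots fill 42 and 48 rows at 24 h with 40 and 80 mpk and 47 rows at 36 h of multiple dosing, and none of the 11 columns holds a called rise.

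RNA polymerase I opens the pathway. Polr1a and Polr1b are its largest subunits and Polr1e (PAF53) a subunit of its initiation-competent form. Polr1b read 1.20, 1.54, 1.49, 1.27 and 1.76 in vehicle arrays at 24 h, 0.849, 0.750, 0.927 and 0.817 with 40 mpk and 0.660, 0.744, 0.825 and 0.689 with 80 mpk. Both treated groups lay wholly below vehicle, and the log2 difference with 80 mpk was -0.99 ± 0.14 (adjusted p = 2.08e-08). Polr1e read 0.670, 0.764, 0.951, 0.929 and 0.874 with vehicle and 0.412, 0.464, 0.389 and 0.498 with 80 mpk, a difference of -0.92 ± 0.11 (adjusted p = 5.48e-10). Polr1a read 1.87, 1.97, 1.94, 1.97 and 2.08 with vehicle and 0.882, 1.25, 1.31 and 1.07 with 80 mpk, a difference of -0.82 ± 0.11 (adjusted p = 1.85e-08). Neither gene had overlapping groups. With macrophage, fibroblast, endothelial and muscle marker means as covariates the difference of Polr1b was -0.60, and with the mean of all its probe sets that of Polr1e was -0.58 and that of Polr1a -0.37.

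The other called polymerase I factors had smaller differences. Mybbp1a, a nucleolar protein that binds Myb and the polymerase, differed by -0.49 ± 0.08, Taf1d, a subunit of the promoter selectivity factor SL1, by -0.45 ± 0.12, and Rrn3, which carries the polymerase to its promoter, by -0.39 ± 0.10. Ubtf, the HMG-box protein that holds ribosomal DNA open, was the 1 member not called at 24 h. It read 5.98, 6.48, 5.75, 5.48 and 5.82 with vehicle, 5.18, 6.53, 5.59 and 4.75 with 40 mpk and 4.31, 5.11, 5.38 and 5.73 with 80 mpk. The groups overlapped, and the difference with 80 mpk was -0.21 ± 0.11 (adjusted p = 0.137). It was -0.13 without treated replicate 1 and -0.33 without the muscle-rich arrays (adjusted p = 0.0563), and with arrays centred on the median it was -0.37 and passed the test (adjusted p = 0.00738). A dimmer probe set of Ubtf differed by -0.38 with 80 mpk (unadjusted p = 0.0247 in limma). Its remaining probe sets differed by -0.15 and 0.03.

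The snoRNP genes had the largest class median. Nop56 read 7.48, 8.56, 7.34, 8.29 and 8.28 with vehicle at 24 h, 4.67, 4.49, 4.15 and 4.42 with 40 mpk and 3.14, 3.54, 3.36 and 3.51 with 80 mpk. The 3 groups were apart from each other, and the fall with 80 mpk was 2.36-fold (log2 difference -1.24 ± 0.08, adjusted p = 2.65e-19). Nolc1 (Nopp140), a chaperone that snoRNPs bind in the nucleolus, read 1.68, 1.78, 1.72, 1.71 and 1.82 with vehicle, 1.02, 0.843, 0.976 and 0.993 with 40 mpk and 0.697, 0.745, 0.848 and 0.853 with 80 mpk. Both doses were below vehicle in every array, and the highest values with 80 mpk (0.848 and 0.853) just passed the lowest with 40 mpk (0.843). Its difference with 80 mpk was -1.15 ± 0.09 (adjusted p = 3.23e-17), a 2.22-fold fall. Nhp2, which joins Dkc1 in the H/ACA particle, read 3.11, 3.83, 3.26, 3.48 and 3.39 with vehicle and 1.67, 1.86, 1.73 and 1.69 with 80 mpk, a difference of -0.97 ± 0.08 (adjusted p = 1.44e-16). Nop58 at -1.20, Dkc1 at -1.04 and Gar1, the other H/ACA partner, at -0.81 followed, and fibrillarin (Fbl), the methyltransferase of the C/D particle, had the second smallest difference of the class at -0.57. With the mean of all its probe sets the difference of Nop56 was -0.75, since 1 of its 3 probe sets was dim and differed by -0.02, while the second brightest differed by -0.98. The probe set used for Nop56 and the second brightest both carry the suffix _x_at, which in Affymetrix naming marks probes that may match other transcripts. The dim one does not carry it.

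**Figure D3:**
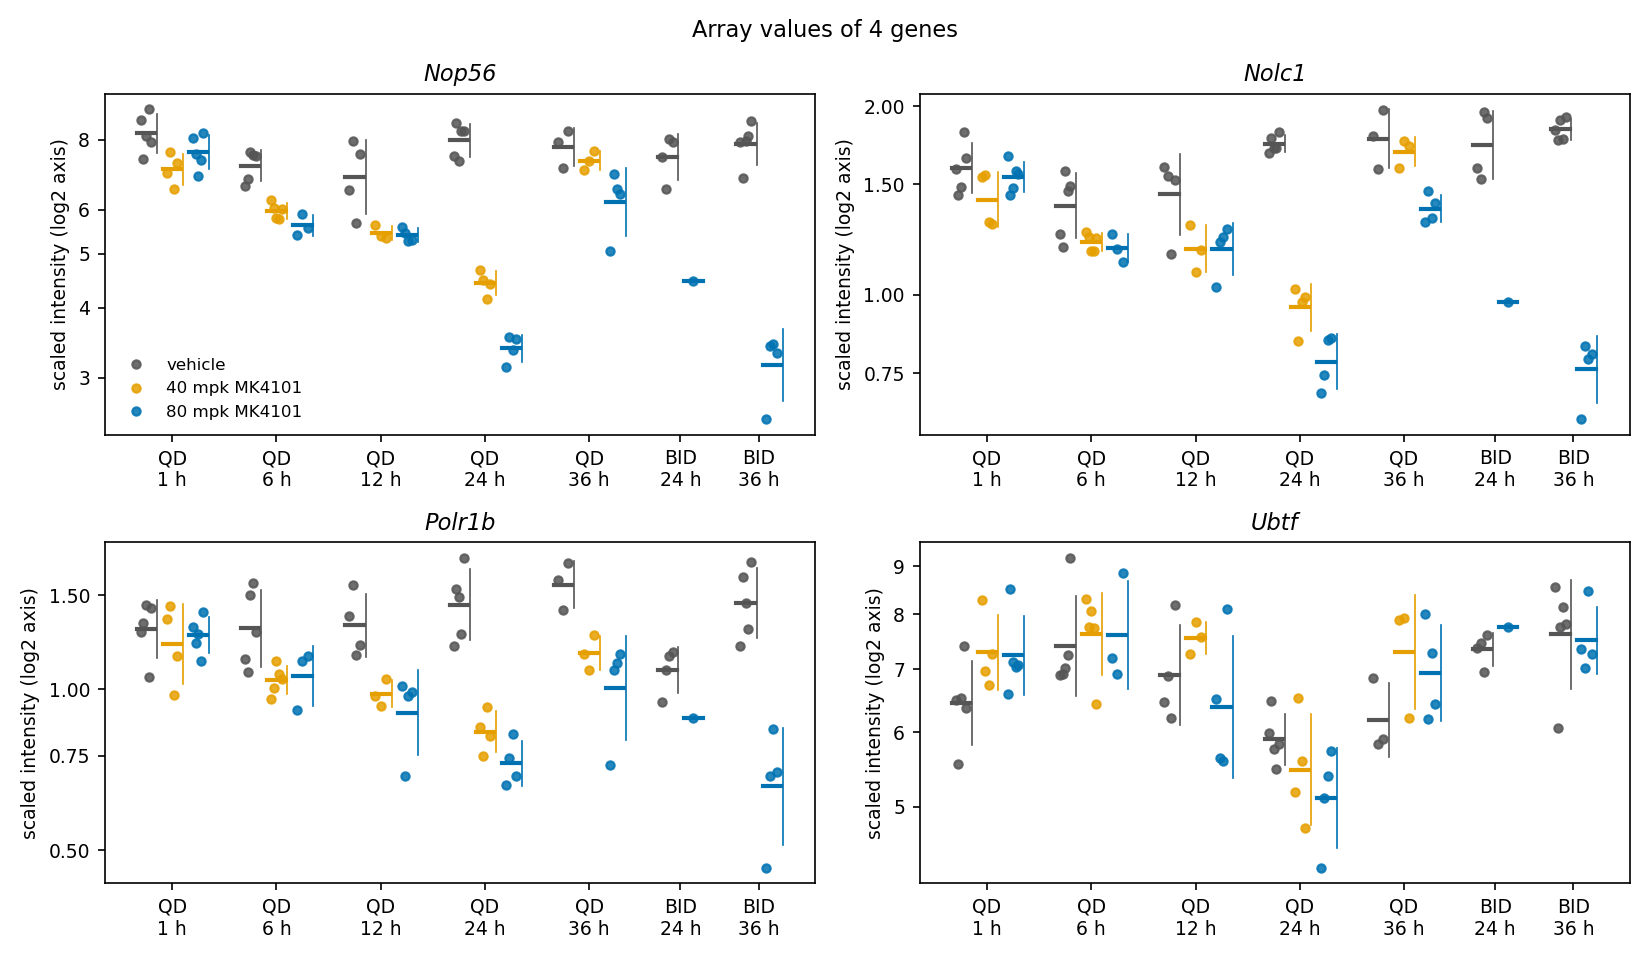
Scaled intensity (log2 axis, each panel with its own range) of Nop56, Nolc1, Polr1b and Ubtf in every array, by schedule and labelled time; points are arrays, bars geometric group means, thin vertical lines 1 SD on the log2 scale to either side. Nop56 drops from 7.98 to 3.39 at 24 h with 80 mpk and from 7.87 to 3.16 at 36 h of multiple dosing, whereas the treated arrays of Ubtf overlap with vehicle at both of these times.

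In the processome Wdr43, of the UTP-A subcomplex that binds the precursor first, read 3.84, 4.54, 3.99, 3.92 and 4.12 with vehicle at 24 h and 2.0, 2.53, 2.68 and 2.52 with 80 mpk, a difference of -0.75 ± 0.07 (adjusted p = 4.42e-14). Rrp9, a protein of the U3 snoRNP at the heart of the processome, read 1.92, 1.98, 1.81, 2.10 and 1.84 against 1.24, 1.32, 1.21 and 1.15, a difference of -0.65 ± 0.07 (adjusted p = 3.31e-11). Noc4l, the partner of Nop14 in yeast, read 2.27, 2.54, 2.44, 2.29 and 2.55 against 1.60, 1.64, 1.65 and 1.56, a difference of -0.58 ± 0.07 (adjusted p = 1.06e-09). In these 3 genes every treated array was below every vehicle array. The other 8 genes of the class were called as well, from Wdr75 at -0.62 to Nop14 at -0.28.

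All 22 assembly genes were called at 24 h with 80 mpk. Rrs1, needed for large-subunit assembly, led with -1.05, and Gnl3 (nucleostemin), a nucleolar GTPase of stem and tumour cells, followed with -0.90. Grwd1, a histone-binding WD-repeat protein found with pre-ribosomes, read 1.76, 1.96, 1.82, 1.93 and 1.93 with vehicle and 0.956, 1.04, 1.03 and 1.12 with 80 mpk (difference -0.86 ± 0.08, adjusted p = 4.03e-14). Mrto4, which in yeast holds the place of the stalk protein P0 on the young large subunit, read 5.67, 5.91, 5.64, 6.41 and 5.76 against 3.35, 3.65, 3.26 and 3.12 (difference -0.81 ± 0.08, adjusted p = 9.44e-14). Bop1 read 2.69, 2.76, 2.69, 2.68 and 2.73 against 1.52, 1.76, 1.60 and 1.69 (difference -0.72 ± 0.07, adjusted p = 1.76e-13). Treated arrays were below all vehicle arrays for each of the 3, and the vehicle arrays of Bop1 were close together. Among its PeBoW partners Wdr12 differed by -0.75 and Pes1 by -0.37. The median was -0.72 over the 15 large-subunit factors, all of them called, and -0.46 over the 4 small-subunit factors Rrp12, Tsr1, Nob1 and Ltv1. Among the abundant nucleolar proteins nucleolin (Ncl) differed by -0.60 and nucleophosmin (Npm1) by -0.32. With the mean of all its probe sets the difference of Bop1 was -0.29.

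Several probe sets existed for 22 members, and the 35 not used above give a reading of the same arrays through other probes. At 24 h with 80 mpk 33 of the 35 differed from vehicle by less than 0, with a median of -0.46 on the log2 scale, 26 of them at an unadjusted p under 0.05, and 0 were higher at that level. Of all 8790 probe sets that do not stand for their gene, 56.3% were below 0 there, 19% lower and 15.3% higher at that level. At 36 h of multiple dosing 34 were below 0 and 27 were lower at an unadjusted p under 0.05, against 55.7% and 21.8% of the 8790.

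With 40 mpk at 24 h the 42 called genes had 8 of 8 from the snoRNP class, 10 of 11 from the processome, 5 of 8 from the polymerase class and 19 of 22 from assembly. Nolc1 differed by -0.87 ± 0.09 (adjusted p = 7.31e-12) and Nop56 by -0.85 ± 0.08 (1.94e-12). The smallest difference was that of Ltv1, a small-subunit export factor, at -0.06 (adjusted p = 0.739). All treated arrays were below all vehicle arrays for 40 members, with 11.3% of all genes in that state. The count was 24 without the muscle-rich arrays, a setting that leaves 1 of the 4 treated arrays.

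The doses were then compared directly at 24 h, where 48 of 49 genes were lower with 80 than with 40 mpk in mean. The median difference was -0.18 over the members and -0.01 over all genes. In this comparison 3 members passed the test, with 1.21% of all genes called in either direction. These were Nop56 (-0.39 ± 0.09, adjusted p = 0.00589), Nhp2 (-0.35 ± 0.08, 0.00893) and Gar1 (-0.33 ± 0.09, 0.0337), all of the snoRNP class. Gar1 read 7.27, 6.67, 6.71 and 7.02 with 40 mpk and 4.92, 5.73, 5.99 and 5.42 with 80 mpk. Nhp2 read 2.33, 2.16, 2.31 and 2.05 with 40 mpk, above its 4 values with 80 mpk. The doses did not overlap in any of these 3 genes. The count was 0 without replicate 1 of the 40 mpk arrays or replicate 1 of the 80 mpk arrays, and 0 without the muscle-rich arrays. At 12 h the direct comparison called 0 members (0.0603% of all genes in either direction), with 10 members at an unadjusted p under 0.05, where 10.9% of all genes were at that level. It called 3 without replicate 4 of the 80 mpk arrays.

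The next question was whether the difference from vehicle itself changed with time. Between 12 and 24 h with 80 mpk it became more negative in 31 members, with 8.02% of all genes called in that direction. Nop56 moved by -0.89 ± 0.12 (adjusted p = 8.27e-08), Nolc1 by -0.86 ± 0.13 (7.33e-07) and Nhp2 by -0.65 ± 0.11 (1.76e-05). The count was 12 with the 4 marker means as covariates and 11 without the muscle-rich arrays. Between 24 and 36 h the difference became less negative in 17 members (background 3.99% called higher). Nop58 moved by 1.11 ± 0.23 (adjusted p = 0.000525), Nop56 by 0.91 ± 0.12 (1.91e-07), Nolc1 by 0.78 ± 0.13 (1.64e-05) and Bop1 by 0.62 ± 0.10 (1.33e-05). Both changes use the arrays of 24 h and are not independent of each other.

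At 36 h after the single dose of 80 mpk 25 members were still lower, 6 of 8 snoRNP, 5 of 11 processome, 4 of 8 polymerase I and 10 of 22 assembly genes, while Gli1 did not pass the test, as given above. Polr1b had the largest difference, -0.64 ± 0.15 (adjusted p = 0.00284). It read 1.60, 1.41 and 1.72 with vehicle and 0.721, 1.08, 1.12 and 1.16 with 80 mpk, without overlap. Gnl3 read 3.66, 3.36 and 4.11 against 1.73, 3.06, 2.74 and 2.82, a difference of -0.55 ± 0.12 (adjusted p = 0.00116). Nop58 read 7.31, 8.59 and 8.77 against 6.04, 8.48, 8.22 and 8.38 and Bop1 2.47, 2.63 and 2.60 against 2.28, 2.40, 2.54 and 2.37. Both of these overlapped with vehicle and did not pass the test, with differences of -0.09 ± 0.17 and -0.10 ± 0.08 (adjusted p = 0.821 and 0.486). Every treated array was below every vehicle array in 34 members, with 12.3% of all genes in that state.

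The count at 36 h rests on few arrays. It was 13 and 10 without vehicle replicates 1 and 3, 12 without treated replicate 1, 11 with the marker means as covariates, 9 without the muscle-rich arrays and 2 when only the 2 groups compared were in the fit, and Polr1b did not pass under the covariates (-0.36, adjusted p = 0.155) or with those 2 groups alone (adjusted p = 0.0810). In the direct comparison of doses at 36 h, 48 of 49 members were lower with 80 mpk in mean. The median difference was -0.22 over the members and -0.01 over all genes. Of the members 1 passed, Wdr75 of the UTP-A subcomplex (0.826% of all genes called in either direction). Wdr75 read 2.38, 2.15 and 1.89 with 40 mpk and 1.47, 1.69, 1.59 and 1.55 with 80 mpk, apart from each other (difference -0.44 ± 0.11, adjusted p = 0.0399). That count was 0 without replicate 1 or 2 of the 40 mpk arrays or replicate 1, 3 or 4 of the 80 mpk arrays, and 3 without replicate 2 of the latter. It was 0 without the muscle-rich arrays.

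Multiple dosing gave the lowest group mean over the 49 genes, 0.76 ± 0.11 at 36 h (SD, n = 4), against 1.52 ± 0.06 in its vehicle arrays (n = 5). With 80 mpk 47 members were lower than the vehicle arrays of the same schedule (background 17.7%), with a median of -0.74, against 0.01 over all genes. Nop56 read 7.93, 6.83, 7.96, 8.14 and 8.63 with vehicle and 2.53, 3.42, 3.45 and 3.32 with MK4101, a 2.49-fold fall (-1.32 ± 0.08, adjusted p = 4.99e-21). Nolc1 read 1.83, 1.77, 1.90, 1.77 and 1.92 against 0.634, 0.830, 0.791 and 0.805 (-1.27 ± 0.09, adjusted p = 2.61e-19). Polr1b read 1.20, 1.62, 1.45, 1.30 and 1.73 against 0.463, 0.687, 0.844 and 0.700 (-1.14 ± 0.14, adjusted p = 2.45e-10). In the 3 genes no treated array reached the vehicle range, and the same held for 45 of the 49 genes, with 12.9% of all genes in that state. Replicate 1 of the treated arrays was the lowest in each of these 3 genes. Medians by class were -1.09 (snoRNP, 8 of 8 called), -0.71 (polymerase I, 7 of 8), -0.70 (assembly, 21 of 22) and -0.65 (processome, 11 of 11).

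The exceptions on this schedule were Ubtf and Ltv1. Ubtf read 8.57, 6.06, 7.76, 8.14 and 7.82 with vehicle and 7.36, 7.02, 8.46 and 7.27 with MK4101, overlapping throughout (-0.02 ± 0.11, adjusted p = 0.918). Its difference lay between -0.17 and 0.07 under the other processing settings and between -0.10 and 0.02 when arrays were left out in turn. These values hold for its brightest probe set, or for the mean of all of them. A dimmer probe set differed by -0.38 (unadjusted p = 0.0259 in limma), and the remaining ones by -0.04 and -0.08. Ltv1 differed by -0.20 ± 0.10 (adjusted p = 0.134), with treated arrays at 0.195, 0.159, 0.183 and 0.201 and vehicle arrays from 0.194 to 0.245. All 47 genes called here were also called at 24 h after the single dose of 80 mpk, 97.9% of the 48. With 48 of the 49 members called there, this overlap was nearly fixed in advance. The comparisons share no array but share an estimate of the spread.

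The schedules differed at 36 h when their differences from their own vehicle arrays were compared. In 29 members the difference was more negative with multiple dosing (background 5.36%), and in 0 was it less negative by the test (background 1.9%). Nop58 differed between schedules by -1.21 ± 0.23 (adjusted p = 0.000105), Nop56 by -0.99 ± 0.12 (9.90e-09), Nolc1 by -0.90 ± 0.13 (5.03e-07) and Bop1 by -0.64 ± 0.10 (5.00e-06). Polr1b (-0.49 ± 0.21, adjusted p = 0.155) and Wdr75 (-0.35 ± 0.15, adjusted p = 0.164) did not pass, and both were lower on each schedule. The schedules differ in the doses received and in the time since the last dose, which the labels do not give, and these cannot be told apart. All 25 members called after the single dose were among the 47 called with multiple dosing, of which they make up 53.2%. With 47 of the 49 members called, that overlap was nearly fixed in advance. The count of 29 was 17 when only the 4 groups compared were in the fit.

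**Figure D4:**
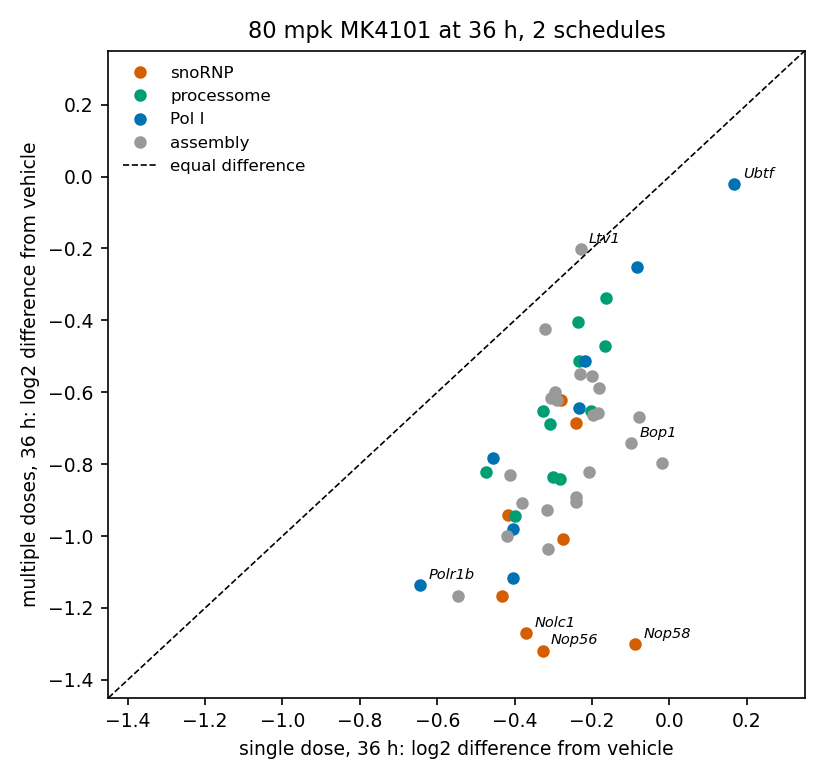
Log2 difference from vehicle of the 49 genes at 36 h with 80 mpk, after a single dose (x axis) and with multiple doses (y axis), coloured by class; the dashed line marks equal differences. Nop58 (-0.09 against -1.30) lies far below the line, Ubtf (0.17 against -0.02) is near 0 on both axes, and Ltv1 (-0.23 against -0.20) lies on the line.

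The 1 treated array of multiple dosing at 24 h has no replicate, so it gives values and no test. Its mean over the 49 genes was 1.06, against 1.33 to 1.50 in its 4 vehicle arrays. Nop56 read 4.47 in it and 7.44, 6.54, 8.03 and 7.92 with vehicle, and Nolc1 0.975 against 1.59, 1.53, 1.95 and 1.91. Both lay below all vehicle arrays, as did 44 of the 49 members, where 27.7% of all genes lay below. The difference from the vehicle mean was past 0.25 on the log2 scale downward in 37 members (18.5% of all genes), and its median was -0.36, against -0.02 over all genes.

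Vehicle arrays were compared across the 5 single-dose times to see how the genes vary without inhibitor. An F test in limma called 3 members, where 6.28% of all genes were called. Polr1e had geometric means of 0.757, 0.601, 0.674, 0.830 and 0.777 at 1, 6, 12, 24 and 36 h (adjusted p = 0.0191). Nolc1 had 1.59, 1.39, 1.45, 1.74 and 1.77 (adjusted p = 0.0144) and Ddx18, an assembly helicase, 4.29, 3.66, 3.96, 4.26 and 4.37 (adjusted p = 0.0441). All 3 were lowest at 6 h, and the spread of their vehicle means, at most 0.47 on the log2 scale, was below their treated difference at 24 h. The count was 1 without vehicle replicate 1 or 2 at 6 h or replicate 4 at 24 h, 5 and 6 without replicates 3 and 4 at 6 h and 7 without replicate 2 at 12 h. No member was called in limma without the muscle-rich arrays or with the 4 marker means as covariates (0 in each), and in the fit of all arrays 14 members had an unadjusted p under 0.05, with 22.8% of all genes at that level.

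Other factors of the pathway were read from a second list of 104 genes, 97 of them measured. At 24 h with 80 mpk 75 were lower and 2 higher, with a median of -0.39, and at 36 h of multiple dosing 78 were lower and 2 higher. Lyar, a nucleolar zinc-finger protein, had the largest difference at 24 h (-1.19 ± 0.10, from 5.32 to 2.34), and Brix1 (-0.79), Mphosph10 (-0.77), Ebna1bp2 (-0.73), Ruvbl2 (-0.68) and Rrp15 (-0.67) were the others with the smallest adjusted p. Brix1, Ebna1bp2 and Rrp15 act on the large subunit, Mphosph10 in the processome, and Ruvbl2 in the assembly of snoRNPs. Nsa2, a large-subunit factor, rose by 0.37 ± 0.09 (from 8.83 to 11.4, adjusted p = 0.000445) and Nop53, another, by 0.17 ± 0.07 (from 8.67 to 9.77, adjusted p = 0.0346). With arrays centred on the median neither passed the test at 24 h (0.20, adjusted p = 0.0593, and 0.01, adjusted p = 0.911), and 87 genes of the list were lower and 0 higher. Under that centring both were higher in limma at 12 h with 80 mpk (0.39, adjusted p = 0.00472, and 0.39, adjusted p = 0.00107). At 36 h of multiple dosing Nsa2 was higher (0.29, adjusted p = 0.00899) and Nop53 did not pass. Neither passed at 24 h with 40 mpk or at 36 h after the single dose of 80 mpk.

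Genes for the ribosome's own proteins did not follow the factors in count. Of 68 cytosolic ribosomal protein genes 8 were lower and 5 higher at 24 h with 80 mpk, with a median of 0.02, and 12 were lower and 4 higher at 36 h of multiple dosing (median -0.04). The shares of all genes called lower, given above, were 15.3% and 17.7%, close to those of this list. With arrays centred on the median the first of these medians changed sign, to -0.14 at 24 h with 21 lower and 1 higher, and the second was -0.19 with 32 lower and 0 higher. Mitochondrial ribosomal protein genes had 50 of 74 lower and 1 higher at 24 h (median -0.26), RNA polymerase II subunits 9 of 12 lower (median -0.31) and polymerase III subunits 4 of 8 lower (median -0.18). Under the same centring these counts were 68 of 74, 11 of 12 and 6 of 8, with medians of -0.42, -0.47 and -0.34. DNA replication genes had 30 of 30 called lower with a median of -1.39. Their course differed in counts from that of the members, with 25 of 30 lower at 12 h and 2 of 30 at 36 h after 80 mpk, beside 19 and 25 of the 49 members. Under the centring these counts were 20 and 4 of 30, beside 8 and 31 of 49, without a share of all genes computed. In size the 2 lists were close at 36 h, with centred medians of -0.32 for replication genes and -0.36 for members. The array means of the replication genes were 1.27 ± 0.16 there (SD, n = 4), against 1.53 ± 0.08 with vehicle (n = 3). Those of the members were 1.18 ± 0.08 and 1.46 ± 0.04, so the counts at 36 h do not compare the sizes. No test of these lists against each other was made.

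**Figure D5:**
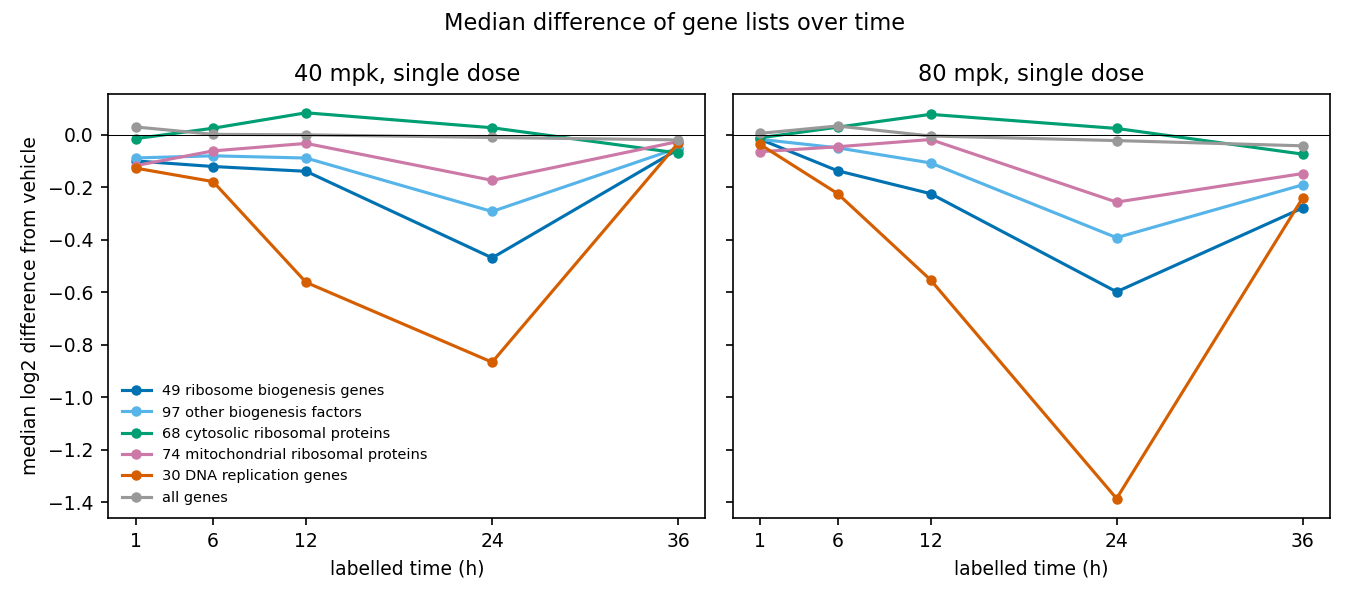
Median log2 difference from vehicle of 6 gene groups at the 5 labelled times after a single dose of 40 mpk (left) or 80 mpk (right). The 49 genes reach -0.47 and -0.60 at 24 h, DNA replication genes -0.87 and -1.39, and cytosolic ribosomal protein genes lie near the line of all genes (0.03 and 0.02), on the deposited scale.

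Transcripts of the Myc family were measured on the same arrays. Myc differed from vehicle with 80 mpk by 0.36 ± 0.11 at 12 h (adjusted p = 0.0186), 0.09 ± 0.10 at 24 h (adjusted p = 0.576) and -0.51 ± 0.11 at 36 h (adjusted p = 0.00137), and by -0.36 ± 0.10 at 36 h of multiple dosing (adjusted p = 0.00252). Mycn rose by 0.40 ± 0.10 with 40 mpk at 24 h (adjusted p = 0.00109), where 42 members were lower, and with 80 mpk it differed by 0.19 ± 0.10 at 24 h (adjusted p = 0.132) and by -0.29 ± 0.10 with multiple dosing (adjusted p = 0.0162). Mycl rose with 80 mpk by 0.69 ± 0.14 at 12 h (adjusted p = 0.000149), differed by 0.22 ± 0.13 at 24 h (adjusted p = 0.194) and fell by 0.86 ± 0.15 at 36 h (adjusted p = 2.25e-05). With multiple dosing its difference was -0.53 ± 0.13 (adjusted p = 0.000601). Mxd4, a Max partner that opposes Myc, rose by 1.31 ± 0.12 at 24 h (adjusted p = 7.75e-14) and by 1.22 ± 0.12 with multiple dosing (adjusted p = 6.43e-13). It also rose at 12 h with 40 mpk (0.89 ± 0.14, adjusted p = 4.45e-06), where 6 members were lower. With 80 mpk it rose at 12 h (0.51 ± 0.13, adjusted p = 0.00369) and 36 h (0.71 ± 0.14, adjusted p = 0.000181). Across the vehicle times its means spanned 0.57 (F test in limma, adjusted p = 0.00254). At 24 h with 80 mpk Mxi1 rose by 0.60 ± 0.12 (adjusted p = 2.68e-05) and Max differed by 0.07 ± 0.08 (adjusted p = 0.574). With arrays centred on the median Myc did not pass at 12 h (0.41, adjusted p = 0.0506) and its value at 24 h was -0.08, and Mycn did not pass with 40 mpk at 24 h (0.24, adjusted p = 0.114). The part of these genes in the members' differences was not tested.

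Markers of several host cell types were higher where the members were lowest, and macrophage markers elsewhere too. At 36 h after the single dose of 80 mpk the macrophage mean log2 was 1.87, against 0.48 with vehicle, beside 2.25 and 0.98 at 24 h. The member mean was 1.18 at 36 h and 0.81 at 24 h. Under centring on the median, 2 of 7 adipocyte markers were higher at 24 h with 80 mpk and 0 at 36 h of multiple dosing. At 24 h with 80 mpk 10 of 12 macrophage markers, 8 of 10 fibroblast markers and 7 of 10 endothelial markers were called higher, with 0 of 14 muscle markers. The summed scaled intensity of the macrophage markers ran from 35.5 to 70.0 in the vehicle arrays and from 88.9 to 125 in the treated ones, that of the fibroblast markers from 63.8 to 135 and from 138 to 213. The muscle sum ran from 1.99 to 43.0 and from 1.86 to 235. No marker was at 0 on any array, since every deposited value was above 0. At 36 h of multiple dosing 10 of 12 macrophage, 9 of 10 fibroblast and 7 of 10 endothelial markers were higher, and the macrophage sum ran from 24.0 to 46.2 with vehicle and from 91.1 to 126 with MK4101. Of 10 markers of medulloblastoma and granule neuron progenitors 3 were lower and 4 higher at 24 h with 80 mpk. Under centring on the median 3 were lower and 2 higher there, and 5 lower and 4 higher at 36 h of multiple dosing. The mean log2 of this list on that schedule was 1.63 ± 0.25 with MK4101 (SD, n = 4) and 1.90 ± 0.12 with vehicle (n = 5). The list includes Gli1, Gli2 and Mycn, genes of the inhibited pathway or the Myc family, so it does not measure tumour cell content alone. The means of the macrophage, fibroblast, endothelial and muscle lists were also used as covariates. With them 40 members were lower at 24 h with 80 mpk (median -0.51), 37 with 40 mpk and 46 at 36 h of multiple dosing (median -0.64). In that fit the medians over all genes with 80 mpk were -0.02 at 24 h and -0.01 at 36 h of multiple dosing. Without the muscle-rich arrays the counts with 80 mpk were 46 and 46. The share of all genes called was computed in neither fit, so these counts have no background beside them.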

How the data were processed

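Whole-transcriptome expression was measured on one-colour arrays. RMA is named in the submitters' processing notes, without a version. The deposited values are intensity on a linear scale, with a mean of 1 on each array, and neither that scaling nor the log base is described in the sources used here. Values were taken to log2 with no pseudocount, since all were above 0. Of 43681 probe sets, 30342 had 1 gene symbol in the platform annotation and 13339 had none. Symbols were updated through RefSeq (GRCm38.p6), by accession for 15255 probe sets, by symbol for 11332 and by synonym for 3702, with 53 kept as given. The probe set with the highest mean stood for each of 21552 genes, and 6060 genes had several.

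The design had assumed log2 values, and the same test was run after the log2 step. A limma 3.58.1 fit in R 4.3.3 held the means of all 19 groups (56 residual degrees of freedom), and p-values were adjusted by Benjamini-Hochberg over all genes, with calls at 0.05. On simulated data for 80 mpk at 24 h (21552 genes) it recovered 64% of changes of 0.5 and 93% of changes of 1 on the log2 scale, with 6 false calls. There 100 genes were changed by each size and the noise was independent between genes and arrays. In the real comparison 15.3% of all genes were called lower and 17.6% higher, so these rates need not hold for it. Python 3.11.15, numpy 2.4.6, pandas 2.3.3 and matplotlib 3.10.9 were used for tables and plots. No depth exists for arrays, and their number limits the precision.

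Genes named with full values were the 3 with the smallest adjusted p of each class at 24 h with 80 mpk, members not called there, members called at 6 h, the 3 smallest adjusted p of each tested difference, and in the second list the 6 smallest adjusted p and any gene called higher. Other genes named were chosen after their values were seen. The members and lists were chosen with earlier results of these data known. Replicate numbers are shared by groups, but the correlations of same-numbered arrays were never all over 0.1 within a comparison, so they were not used to pair arrays. Alternatives were other probe set rules, filters, scalings, variance models, a replicate block, host marker covariates, leaving out muscle-rich arrays, smaller fits and leaving out each array. The share of all genes called was not computed for the alternatives.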

Additional observations from a re-analysis of the deposited data

Results flagged for a closer look

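Single arrays stood apart from the rest of their group in 5 of 90 groups of values tested with Dixon's ratio, where chance gives about 1 in 20. Replicate 1 of the 80 mpk arrays at 24 h had a mean log2 intensity over the 49 genes of 0.69, against 0.83 to 0.86 in the other arrays. Replicate 1 of the multiple-dose arrays at 36 h had 0.59, against 0.81 to 0.83, and the lowest Nop56 there, 2.53 against 3.32 to 3.45. Replicate 2 of the multiple-dose vehicle arrays at 36 h was low in Ubtf (6.06 against 7.76 to 8.57) and in Nop58 (6.94 against 8.58 to 9.17). The counts of 48 and 47 genes called lower lay between 45 and 48 and between 46 and 47 when arrays were left out in turn.

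Tests of the difference between effects called 31 members between 12 and 24 h, 17 between 24 and 36 h and 29 between the schedules at 36 h.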

How the results depend on the processing

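The counts at 24 h and at 36 h of multiple dosing moved by less than 1.5 times under the alternatives, except that 24 members were called with 40 mpk at 24 h without the muscle-rich arrays (53 arrays left). No single-gene value changed sign past the test, 248 single-gene results lost their call and 117 gained one. Early times, direct dose comparisons and 36 h after a single dose depend on the setting, and the cause was not tested. In the order 40 mpk at 6 and 12 h, then 80 mpk at 6 and 12 h, centring on the median gave 0, 0, 2 and 8, array weights 7, 13, 9 and 29, and a fit of only the groups compared 0, 0, 0 and 5. With 40 mpk at 6 h the mean of probe sets gave 1, a filter on dim genes (14368 left) 5, and host covariates 7. Without muscle-rich arrays the counts were 1 with 40 mpk at 6 h and at 12 h, 1 with 80 mpk at 6 h and 9 at 36 h. Host covariates gave 11 at 36 h with 80 mpk and a fit of only the groups compared 2. For 80 against 40 mpk, array weights gave 9, 5 and 3 at 12, 24 and 36 h. At 24 h centring, the muscle-rich setting and the smaller fit gave 0, and the same settings gave 0 at 36 h, where the mean of probe sets gave 2, the dim filter 3, trend with robust fitting 3 and host covariates 5. The change between 12 and 24 h was called in 12 members with host covariates and 11 without muscle-rich arrays, and the schedules differed in 17 in the smaller fit. Vehicle times differed in 6 members with the dim filter, 8 with centring, 5 with trend and robust fitting, 12 with array weights, 0 with host covariates and 0 without muscle-rich arrays.

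Leaving out arrays in turn gave 0 to 1, 0 to 7, 1 to 7, 40 to 43 and 0 to 0 members with 40 mpk at the 5 times, and 0 to 0, 1 to 7, 15 to 26, 45 to 48 and 10 to 26 with 80 mpk. It gave 46 to 47 at 36 h of multiple dosing, 0 to 3, 0 to 4 and 0 to 3 for the doses at 12, 24 and 36 h, 23 to 32 for 24 against 12 h, 14 to 19 for 36 against 24 h, 23 to 32 for the schedules and 1 to 7 for the vehicle times. With the replicate block, whose numbers do not pair the arrays (correlations of same-numbered arrays from -0.61 to 0.50), 3, 5 and 42 members were called with 40 mpk at 6, 12 and 24 h, 3, 19, 48 and 30 with 80 mpk at 6 to 36 h and 47 with multiple dosing.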
